A study of Mus musculus with 4 samples.

Results

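The interferon-stimulated genes described here are 38 mouse genes, taken by their symbol from a list of genes that interferons are known to induce. All 38 had reads in all 4 libraries, and 17008 genes had a read in any library. The RNA came from macrophages sorted from C57BL/6J mice, labelled 6 to 8 weeks old. The groups were T-ALL bone marrow, normal bone marrow, T-ALL spleen and normal spleen, with 1 library each. T-ALL mice carried T cell acute lymphoblastic leukaemia and were sampled at day 21 after they had received GFP+ leukaemia cells with no irradiation, in a model with survival of 35 to 40 days. The normal libraries are titled so, and the only other day the protocol names is day 0. The series asks how leukaemia-associated macrophages differ from those of homeostasis. The sources used here do not give the sort's markers, how the leukaemia was made or the number of mice behind a library.

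Type I interferons bind the receptor pair Ifnar1 and Ifnar2, whose kinases Jak1 and Tyk2 phosphorylate Stat2. With Irf9, it takes part in a complex that binds the interferon-stimulated response element in the promoters of antiviral genes. Interferon gamma acts through Ifngr1 and Ifngr2, on a different promoter element, and induces GTPases and antigen presentation genes. Macrophages are known to keep many of these genes at a low steady level through small amounts of type I interferon, and to raise them after infection or on sensing nucleic acids.

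Levels are CPM, the reads of a gene scaled to a common library total. The words higher and lower are kept for genes that differed at least 2-fold on log2(CPM + 1) and reached 10 CPM in either library. A fold without "log2" is a plain ratio of CPM, with its exact binomial 95% interval in parentheses. That interval covers counting error alone. Each group has 1 library, so nothing here was checked against replicates and there are no p-values. In RNA of sorted cells, fewer cells of a type and less RNA per cell cannot be told apart.

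The scaled library totals were 9318043 and 9856658 reads in T-ALL and normal bone marrow, and 9236820 and 8939756 reads in T-ALL and normal spleen. All 16 macrophage markers found in the files had reads in every library. They summed to 10205 CPM in T-ALL and 3817 CPM in normal bone marrow, and to 5766 CPM in T-ALL and 10594 CPM in normal spleen. These sums lean on few genes in bone marrow, where the most abundant marker was at 5494 CPM in T-ALL and 2572 CPM in normal. In normal bone marrow 13 of the 16 reached 10 CPM and the lowest was at 0.101 CPM. In T-ALL bone marrow 15 reached it, and in each spleen library all 16. The 9 neutrophil markers summed to more than the macrophage markers in bone marrow, at 27865 CPM in T-ALL and 35057 CPM in normal. In spleen they summed to only 152 CPM in T-ALL and 533 CPM in normal. The 6 neutrophil precursor markers summed to 3697 CPM in T-ALL and 14976 CPM in normal bone marrow. Their sums in spleen were 67.2 CPM in T-ALL and 77.4 CPM in normal. The 12 T cell markers summed to 775 and 197 CPM in T-ALL and normal bone marrow, and to 3597 and 1223 CPM in T-ALL and normal spleen. No marker of these lists was at 0 in any library. Sex-linked transcripts also moved with condition, and differed between the T-ALL libraries. The Y-linked Ddx3y had 874 reads in T-ALL and 0 in normal bone marrow, and 532 reads in T-ALL and 0 in normal spleen. Xist, which the inactive X chromosome makes, had 6 reads in T-ALL and 8485 in normal bone marrow, and 3846 reads in T-ALL and 7588 in normal spleen. The T-ALL spleen library thus held both transcripts in number, while T-ALL bone marrow held almost no Xist. Their part in the members' differences was not tested.

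Every member that passed the size rule in bone marrow was higher in T-ALL, and every member that passed it in spleen was lower in T-ALL. Summed over the 38 genes, the level was 2901 CPM in T-ALL and 1606 CPM in normal bone marrow, while in spleen it was 1984 CPM in T-ALL and 3833 CPM in normal mice. The normal spleen library was thus the highest and the normal bone marrow library the lowest. In bone marrow, 35 members reached 10 CPM in either library; 11 of them were higher in T-ALL and 0 lower, and the median log2 fold was 0.58. Over all 9716 genes past that minimum the median was -0.04, 8.01% were higher and 1.03% lower. In spleen, 37 members reached the minimum; 12 were lower in T-ALL and 0 higher, and the median log2 fold was -0.88. There the median of all 9774 genes was -0.08, with 10.3% higher and 11.0% lower. In both organs the macrophage markers moved the same way as the members: in bone marrow 14 of 15 markers past the minimum were higher (median log2 fold 2.91), and in spleen 8 of 16 were lower and 1 higher (median -0.88). Their part in the members' differences was not tested. Set against the median of 10 macrophage markers, the members' median log2 fold was -2.63 in bone marrow and -0.14 in spleen. By that setting the median of all genes past the minimum was -3.25 in bone marrow and 0.67 in spleen.

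**Figure D1:**
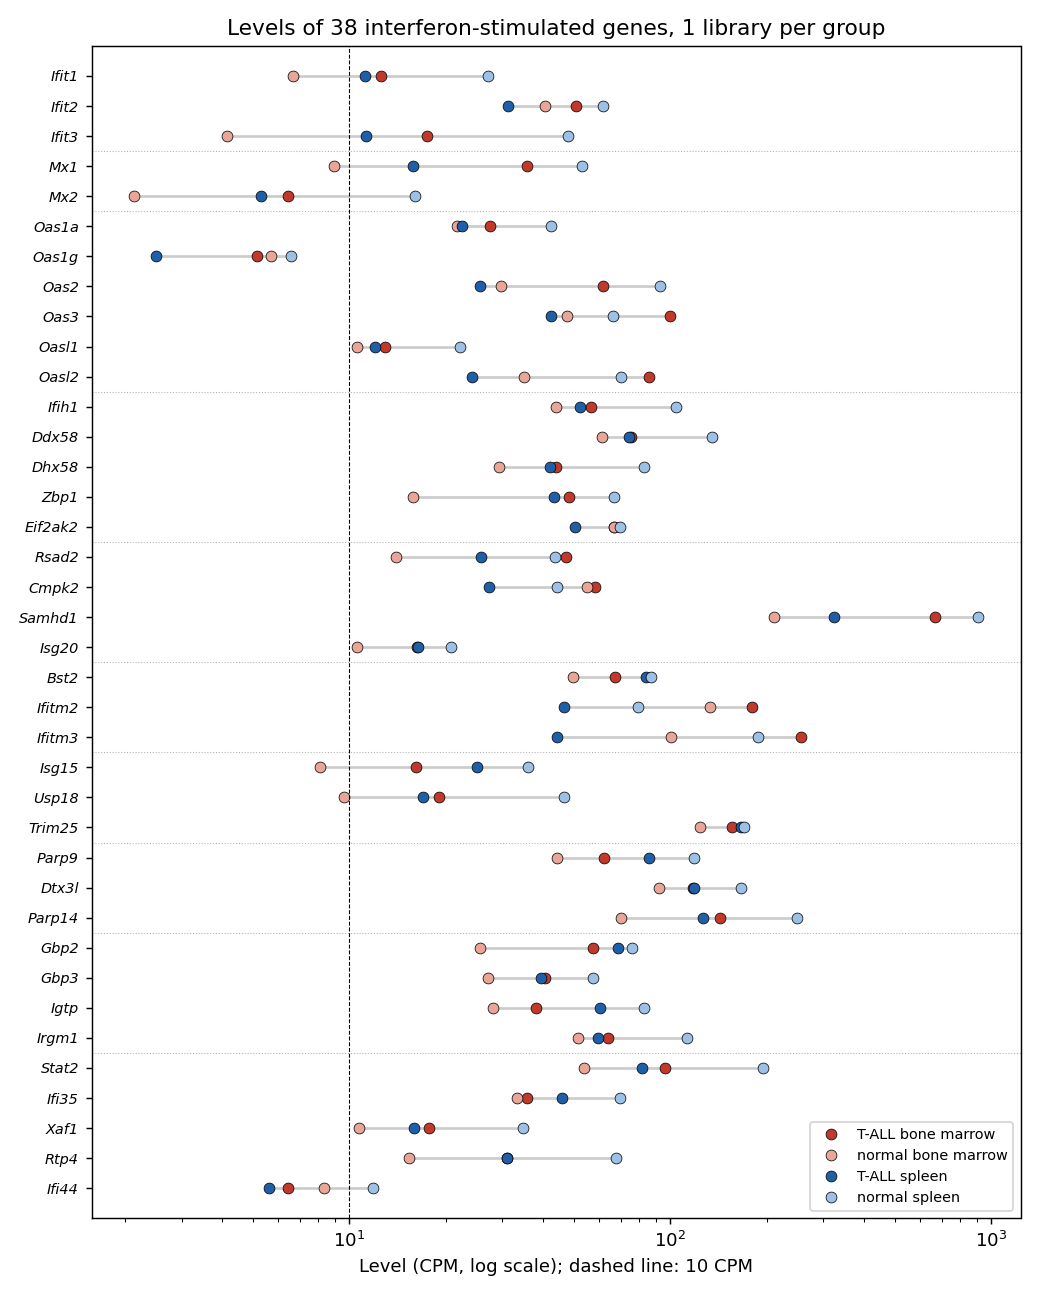
Level of each of the 38 members in CPM on a log axis, 1 point per library, with members grouped by role and the dashed line at 10 CPM. In 32 rows the normal spleen point is farthest right, and in 28 rows the normal bone marrow point is farthest left.

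The members took 7 different orders of the 4 libraries. Normal spleen had the highest level for 32 of the 38 members, against 33.3% of all genes with 10 CPM or more in any library. T-ALL bone marrow had the highest level for the other 6, Oas3, Oasl2, Rsad2, Cmpk2, Ifitm2 and Ifitm3, and for 12.0% of all genes. No member was highest in normal bone marrow or in T-ALL spleen. The lowest library was normal bone marrow for 28 members, against 29.1% of all genes. It was T-ALL spleen for the other 10 members, a share close to the 28.6% of all genes. Normal spleen, then T-ALL bone marrow, then T-ALL spleen, then normal bone marrow was the commonest order, found for 18 members. Of 35 members past the minimum in both organs, 34 had a positive log2 fold in bone marrow and a negative one in spleen, as did 34.8% of 9178 such genes. These 2 comparisons share no library. The exception was Eif2ak2, with log2 folds of -0.00 and -0.47. Across these 35 genes, the log2 folds in the 2 organs had a Pearson r of -0.56 and a Spearman rho of -0.47, as a description, since the genes come from the same libraries; r over all 9178 genes was -0.30.

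**Figure D2:**
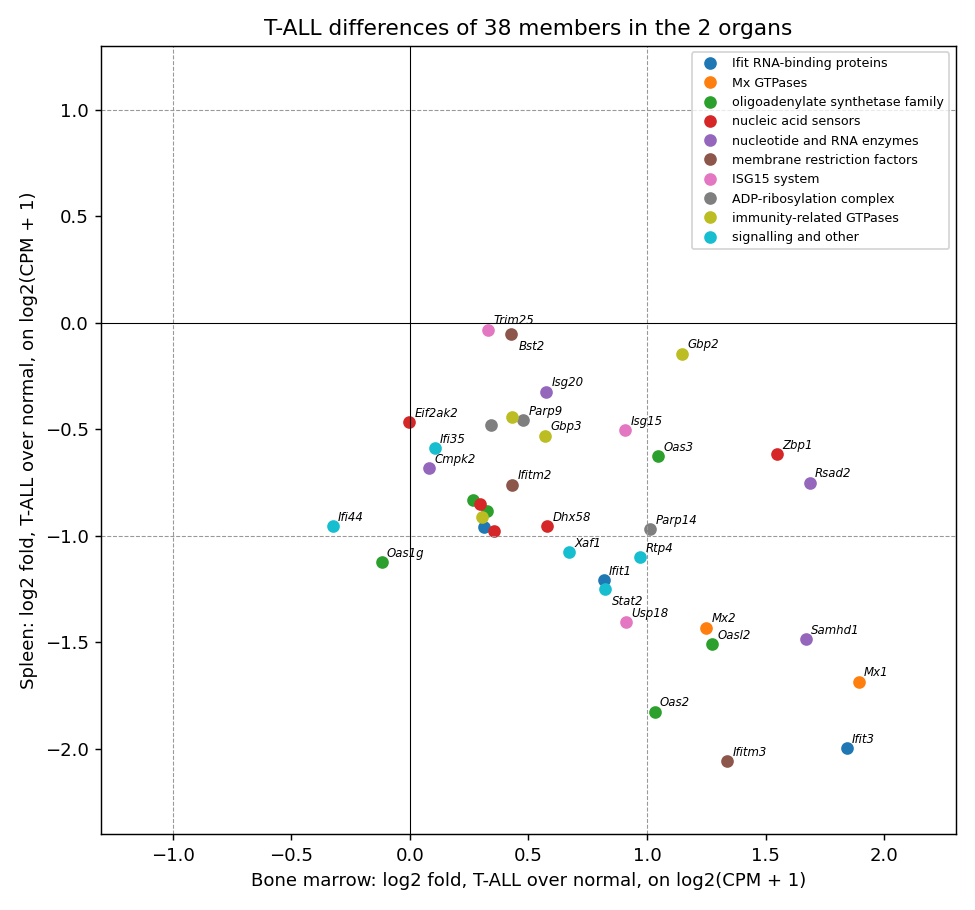
Log2 fold of each member, T-ALL over normal, in bone marrow (horizontal axis) and spleen (vertical axis), coloured by role, with dashed lines at 2-fold; 8 members in the crowded centre carry no name. The points lie almost entirely to the lower right, and Ifit3, Mx1, Oas2, Oasl2, Samhd1 and Ifitm3 lie beyond 2-fold on both axes, as does Mx2, which is under 10 CPM in both bone marrow libraries.

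Among the Ifit genes, whose proteins bind foreign RNA and block its translation, Ifit3 had the widest differences. Ifit3 (Gene ID 15959) was at 17.5 CPM in T-ALL and 4.16 CPM in normal bone marrow, and at 11.3 CPM in T-ALL and 47.9 CPM in normal spleen. It was 4.21-fold higher (2.97 to 6.08) in T-ALL bone marrow and 4.25-fold lower (3.42 to 5.32) in T-ALL spleen. Both T-ALL libraries lay between the 2 normal ones. Reads covered only 47.45% to 69.02% of the listed length of Ifit3, against 93.26% to 96.73% for Ifit2, so the level of Ifit3 is less certain. Ifit1 (Gene ID 15957) was at 12.6 CPM in T-ALL and 6.70 CPM in normal bone marrow, under the size rule, and at 11.2 CPM in T-ALL and 27.1 CPM in normal spleen, 2.43-fold lower (1.92 to 3.09). Ifit2, the most abundant of these genes per length in normal bone marrow at 10.4 RPKM, passed the rule in neither organ: it was at 50.9 and 40.8 CPM in T-ALL and normal bone marrow and at 31.3 and 61.6 CPM in T-ALL and normal spleen. Ifit2 and Ifit3 are neighbours among protein-coding genes on chromosome 19, and their T-ALL ratios in bone marrow, 1.25 (1.09 to 1.43) and 4.21 (2.97 to 6.08), had intervals that did not overlap.

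Mx1 had the largest log2 fold of any member in bone marrow. Mx1 and Mx2 encode dynamin-like GTPases that block virus replication in strains with intact genes. RefSeq lists both as transcribed pseudogenes in the mouse reference assembly. Mx1 (Gene ID 17857) was at 35.8 CPM in T-ALL and 8.93 CPM in normal bone marrow, a log2 fold of 1.89, and at 15.8 CPM in T-ALL and 53.0 CPM in normal spleen, a log2 fold of -1.68. In spleen it was 3.35-fold lower (2.78 to 4.07). Mx2 was far less abundant, at 6.44 CPM in T-ALL and 2.13 CPM in normal bone marrow, both under the minimum, and at 5.30 CPM in T-ALL and 16.0 CPM in normal spleen, 3.02-fold lower (2.17 to 4.26). The 2 genes thus gave the same order of libraries.

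The oligoadenylate synthetases make a second messenger, on sensing double-stranded RNA, that activates RNase L. Of the 5 of 6 family members past the minimum, 3 were higher and 0 lower in T-ALL bone marrow, and 2 were lower and 0 higher in T-ALL spleen. Oas2 (Gene ID 246728) was at 61.8 CPM in T-ALL and 29.7 CPM in normal bone marrow, and at 25.4 CPM in T-ALL and 92.6 CPM in normal spleen. It was 2.08-fold higher (1.80 to 2.40) in T-ALL bone marrow and 3.64-fold lower (3.15 to 4.23) in T-ALL spleen. Its neighbour on chromosome 5, Oas3, was 2.09-fold higher (1.87 to 2.34) in T-ALL bone marrow, at 99.7 against 47.8 CPM, but at 42.5 CPM in T-ALL and 66.2 CPM in normal spleen, under the rule. The bone marrow calls of Oas2 and Oas3 were lost with a pseudocount of 5 and on RPKM.

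Oasl2, a relative with a ubiquitin-like tail, followed Oas2. It was at 85.7 CPM in T-ALL and 34.9 CPM in normal bone marrow, 2.46-fold higher (2.16 to 2.80), and at 24.0 CPM in T-ALL and 70.2 CPM in normal spleen, 2.92-fold lower (2.50 to 3.42). Oasl1, next to it on the chromosome and known in mouse as a brake on translation of Irf7, was at 12.9 and 10.6 CPM in T-ALL and normal bone marrow and at 12.0 and 22.1 CPM in T-ALL and normal spleen, and was called in neither organ. Oas1a and Oas1g are close relatives, and reads that fit both would drop out of counts of unique reads, so their levels are uncertain. Oas1a was at 27.4 and 21.6 CPM in T-ALL and normal bone marrow, and at 22.5 and 42.4 CPM in T-ALL and normal spleen. Oas1g stayed under 10 CPM everywhere, between 2.49 and 6.60 CPM, and reads covered at most 40.4% of its listed length.

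Of the 5 sensors of foreign nucleic acid, Zbp1 alone was called in bone marrow and none in spleen. Zbp1 (Gene ID 58203), which detects Z-form nucleic acid and triggers cell death, was at 48.2 CPM in T-ALL and 15.8 CPM in normal bone marrow, 3.04-fold higher (2.53 to 3.68). In spleen it was at 43.3 CPM in T-ALL and 66.9 CPM in normal. The helicases Ifih1 (MDA5) and Ddx58 (RIG-I), which detect viral RNA, and Dhx58 (LGP2), which tunes them, had bone marrow ratios of 1.23 to 1.51. In spleen all of these helicases lay short of 2-fold. Ifih1 was at 52.3 and 104 CPM in T-ALL and normal spleen. Ratios of normal over T-ALL spleen were 1.99 (1.78 to 2.22) for Ifih1, 1.96 (1.73 to 2.22) for Dhx58 and 1.82 (1.65 to 2.0) for Ddx58. Ddx58 was at 75.7 and 61.4 CPM in T-ALL and normal bone marrow and at 74.5 and 135 CPM in T-ALL and normal spleen, and Dhx58 at 44.1 and 29.2 CPM and at 42.3 and 83.0 CPM in the same pairs. Normal spleen was the highest library for each helicase. Eif2ak2 (PKR), the kinase that halts translation on binding double-stranded RNA, had the smallest log2 folds of the sensors, at 66.8 and 67.0 CPM in T-ALL and normal bone marrow and at 50.3 and 69.9 CPM in T-ALL and normal spleen.

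The enzymes of nucleotide and RNA metabolism held the most abundant member by reads. Samhd1 (Gene ID 56045), which degrades deoxynucleotides and so starves reverse transcription, was at 669.8 CPM in T-ALL and 210.1 CPM in normal bone marrow, and at 325 CPM in T-ALL and 911 CPM in normal spleen. It was 3.19-fold higher (3.03 to 3.35) in T-ALL bone marrow and 2.81-fold lower (2.69 to 2.93) in T-ALL spleen. It alone made up the largest part of its group's summed level. Rsad2 (viperin; Gene ID 58185), which makes a chain-terminating nucleotide, was at 47.2 CPM in T-ALL and 14.0 CPM in normal bone marrow, 3.37-fold higher (2.78 to 4.11), and at 25.7 and 43.8 CPM in T-ALL and normal spleen, under the rule. Cmpk2, the kinase that supplies the substrate of Rsad2 and lies next to it on chromosome 12, did not share its difference. Cmpk2 was at 58.1 and 54.9 CPM in T-ALL and normal bone marrow, a ratio of 1.06 (0.937 to 1.19), and at 27.3 and 44.4 CPM in T-ALL and normal spleen. The intervals of these neighbours did not overlap in bone marrow, while in spleen their ratios were alike and under the rule. Normal over T-ALL, these were 1.71 (1.45 to 2.02) for Rsad2 and 1.63 (1.39 to 1.91) for Cmpk2. Isg20, an exonuclease, was at 16.2 and 10.6 CPM in T-ALL and normal bone marrow and at 16.3 and 20.7 CPM in T-ALL and normal spleen.

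**Figure D3:**
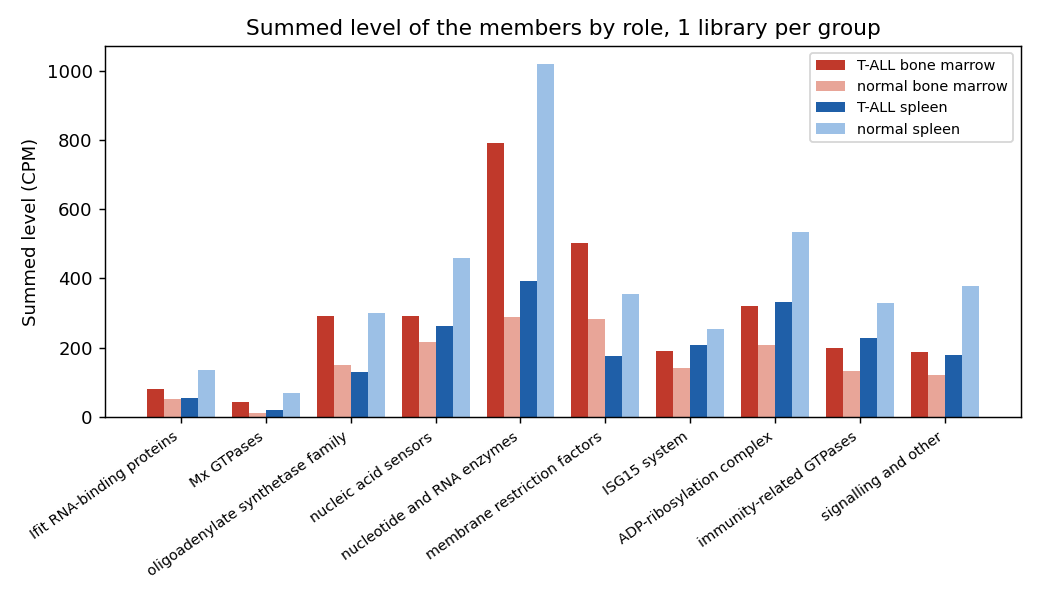
Summed level in CPM of the members of each role group, 1 bar per library, on an axis from 0. The nucleotide and RNA enzymes, led by Samhd1, have the tallest bars, and the membrane restriction factors are the group whose tallest bar is T-ALL bone marrow (502 CPM).

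The membrane proteins that restrict viruses gave the member with the highest RPKM in every library. Ifitm3 (Gene ID 66141), which blocks the fusion of virus and endosome, reached 390 RPKM in T-ALL bone marrow, the highest of any member in any library. It was at 255 CPM in T-ALL and 100.4 CPM in normal bone marrow, 2.54-fold higher (2.36 to 2.74). In spleen it was at 44.4 CPM in T-ALL and 188 CPM in normal, 4.23-fold lower (3.80 to 4.73), a log2 fold of -2.06, the lowest of all members. Ifitm2, its close relative, differed less, with its 2 highest levels in bone marrow. It was at 179.8 and 133 CPM in T-ALL and normal bone marrow and at 46.6 and 79.5 CPM in T-ALL and normal spleen. The neutrophil markers were also far higher in the bone marrow libraries than in the spleen libraries, and their part in these levels was not tested. Reads shared by Ifitm2 and Ifitm3 would be left out of unique counts. Bst2 (tetherin), which holds budding virus at the cell surface and also marks plasmacytoid dendritic cells in mice, was at 67.2 and 49.7 CPM in T-ALL and normal bone marrow and at 83.9 and 86.9 CPM in T-ALL and normal spleen, with a spleen ratio of 0.965 (0.873 to 1.07).

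The ubiquitin-like modifier Isg15 and its enzymes passed the rule in T-ALL only through Usp18 in spleen. Isg15 itself was at 16.1 and 8.12 CPM in T-ALL and normal bone marrow, a ratio of 1.98 (1.5 to 2.64), and at 25.0 and 35.9 CPM in T-ALL and normal spleen. Usp18, which removes Isg15 from proteins and blocks signalling at Ifnar2, was at 19.0 and 9.64 CPM in T-ALL and normal bone marrow, and at 17.0 CPM in T-ALL and 46.6 CPM in normal spleen, 2.74-fold lower (2.28 to 3.32). Trim25, the ubiquitin ligase that can also attach Isg15, was nearly level in spleen, at 167 CPM in T-ALL and 170.3 CPM in normal, and at 156 and 124 CPM in T-ALL and normal bone marrow.

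Parp9, Dtx3l and Parp14, which form or act beside an ADP-ribosylation complex that augments interferon responses, are neighbours on chromosome 16. Parp14 was at 142 CPM in T-ALL and 70.1 CPM in normal bone marrow, 2.03-fold higher (1.85 to 2.23), a call lost with total-count or median-of-ratios scaling, with a pseudocount of 5 and on RPKM. In spleen it was at 127 and 249 CPM in T-ALL and normal. Dtx3l and Parp9 passed in neither organ, with bone marrow ratios of 1.27 (1.16 to 1.39) and 1.40 (1.24 to 1.59). Dtx3l, a ubiquitin ligase, was at 117.5 and 92.4 CPM in T-ALL and normal bone marrow and at 119 and 166 CPM in T-ALL and normal spleen. Parp9, its partner, was at 62.0 and 44.2 CPM in T-ALL and normal bone marrow and at 85.9 and 118 CPM in T-ALL and normal spleen. For all 3 genes normal spleen was the highest library and normal bone marrow the lowest.

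The immunity-related GTPases Gbp2, Gbp3, Igtp and Irgm1 belong to families that are strongly induced by interferon gamma. Of the 4, 1 was higher in T-ALL bone marrow and 0 were called in spleen. Gbp2 (Gene ID 14469) was at 57.6 CPM in T-ALL and 25.5 CPM in normal bone marrow, 2.26-fold higher (1.94 to 2.64), but at 68.7 and 76.1 CPM in T-ALL and normal spleen. Gbp3, Igtp and Irgm1 had T-ALL ratios of 1.24 to 1.5 in bone marrow. In spleen Irgm1 was at 59.7 and 113 CPM in T-ALL and normal, and Igtp at 60.5 and 82.6 CPM. Gbp3, a close relative of Gbp2, was at 40.7 and 27.1 CPM in T-ALL and normal bone marrow and at 39.6 and 57.6 CPM in T-ALL and normal spleen.

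Stat2, the subunit of the interferon complex that carries its main activation domain, was 2.39-fold lower (2.20 to 2.61) in T-ALL spleen. It was at 96.2 and 54.0 CPM in T-ALL and normal bone marrow, and at 81.5 CPM in T-ALL and 195 CPM in normal spleen. Rtp4, a chaperone of receptors that also restricts viruses, was at 31.0 CPM in both T-ALL libraries, against 15.3 CPM in normal marrow and 67.6 CPM in normal spleen. It was 2.18-fold lower (1.89 to 2.52) in T-ALL spleen. Xaf1, a promoter of cell death, was likewise 2.18-fold lower (1.78 to 2.67), at 15.9 and 34.7 CPM in T-ALL and normal spleen. The spleen calls of Xaf1 and Ifit1 were lost with a pseudocount of 5, and that of Xaf1 also on RPKM. Ifi35, which acts as a signalling partner of Nmi, was at 46.1 and 69.8 CPM in T-ALL and normal spleen. Ifi44 was scarce, between 5.63 and 11.9 CPM.

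The largest organ difference was that between the normal libraries. Of 37 members past the minimum, 24 were higher in normal spleen than in normal bone marrow and 0 lower, and the median log2 fold was 1.22. Over all 10072 genes, 16.1% were higher and 14.0% lower, with a median of -0.04. Ifit3 was 11.5-fold higher (8.34 to 16.3), Mx2 7.51-fold (4.73 to 12.5), Mx1 5.94-fold (4.72 to 7.54), Usp18 4.84-fold (3.86 to 6.11), Isg15 4.42-fold (3.45 to 5.73) and Rtp4 4.41-fold (3.68 to 5.31). All 4 immunity-related GTPases were among the higher members, by 2.13-fold to 2.99-fold. Ifitm2 and Cmpk2 were the only members past the minimum with a negative log2 fold, -0.74 and -0.30. Oasl1, Gbp3 and Ifi35 were close to the threshold and lost their calls with a pseudocount of 5, and Oasl1 also with total-count or median-of-ratios scaling and on RPKM. The macrophage markers differed more, with a median log2 fold of 4.14. Set against 10 of them, the members' median was -3.27 and that of all genes past the minimum -4.52.

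Between the T-ALL libraries no member was higher in spleen. Of 35 members past the minimum, 8 were lower in T-ALL spleen than in T-ALL bone marrow and 0 higher, and the median log2 fold was -0.15. All 9852 genes had a median of 0.01, with 5.44% higher and 11.0% lower. The 8 lower members were Ifitm3 (5.75-fold, 5.18 to 6.40), Ifitm2 (3.86-fold, 3.47 to 4.30), Oasl2 (3.57-fold, 3.07 to 4.16), Oas2 (2.43-fold, 2.08 to 2.84), Oas3 (2.34-fold, 2.08 to 2.64), Mx1 (2.27-fold, 1.86 to 2.77), Cmpk2 (2.13-fold, 1.83 to 2.48) and Samhd1 (2.06-fold, 1.97 to 2.16). Mx1 and Cmpk2 lost their calls with a pseudocount of 5, Cmpk2 also on RPKM, and Samhd1 with median-of-ratios scaling. Isg15, Igtp and Parp9 had ratios above 1, of 1.55 (1.26 to 1.92), 1.58 (1.38 to 1.81) and 1.38 (1.24 to 1.54), and did not reach 2-fold. The absolute organ difference was smaller in T-ALL than in health for 28 of 35 members past the minimum in both, against 61.9% of 9612 genes. All 4 comparisons are drawn from the same 4 libraries, so the organ comparisons restate the T-ALL differences and are no separate evidence.

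The promoters of the members were searched for the element through which the interferon complex acts. The window ran from 250 bases before to 50 bases after the start of a gene, from RefSeq on GRCm38.p6, and 29 of the 38 members had one. The core of the response element, a pair of GAAA letters with any 2 bases between them, on either strand, was present for 18 of the 29 members, or 62.1%, and for 3.99% of 27025 genes with a window. The core of the interferon gamma element, TTCNNNGAA, reads the same on both strands. It was present for 9 of 29, or 31.0%, against 9.55% of all genes, and in places it overlaps the first motif. The members were listed as genes that interferons induce, so these shares reflect the choice of the list and are no result of these libraries. Of members with the response element motif that passed the minimum, 5 of 17 were higher in T-ALL bone marrow and 4 of 17 lower in T-ALL spleen. Of those without it, 2 of 10 were higher in T-ALL bone marrow and 3 of 11 lower in T-ALL spleen. The shares over all genes past the minimum were 8.01% and 11.0%. These groups are small, and the difference between them was not tested. The 9 members with no window, Mx1, Mx2, Oas2 and Zbp1 among them, had larger shares called, with 4 of 8 higher in T-ALL bone marrow and 5 of 9 lower in T-ALL spleen, so many called members are outside this split. A match is a stretch of letters and not a bound site.

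The 8 stretches that follow show the motif in members described above, including Ifit3, Rsad2 and Gbp2, called in bone marrow, Isg15 with its run of overlapping copies, and the near-identical Oas1a and Oas1g. They are the gene's own strand, upstream of the start, with bases of the motif in either direction in capitals.
Isg15: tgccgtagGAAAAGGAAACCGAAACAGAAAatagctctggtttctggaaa
Ifit1: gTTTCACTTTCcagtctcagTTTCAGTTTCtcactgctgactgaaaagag
Ifit3: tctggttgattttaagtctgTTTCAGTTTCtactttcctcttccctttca
Rsad2: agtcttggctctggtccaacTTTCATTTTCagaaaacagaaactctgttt
Gbp2: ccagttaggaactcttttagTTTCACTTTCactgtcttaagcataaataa
Igtp: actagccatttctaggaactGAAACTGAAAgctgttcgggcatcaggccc
Oas1a: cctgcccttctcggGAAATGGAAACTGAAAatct
Oas1g: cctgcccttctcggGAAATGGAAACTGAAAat
They lie at chr4:156200855-156200904 (minus strand) for Isg15, chr19:34640784-34640833 (plus) for Ifit1, chr19:34583387-34583436 (plus) for Ifit3, chr12:26456543-26456592 (minus) for Rsad2, chr3:142620584-142620633 (plus) for Gbp2, chr11:58199502-58199551 (plus) for Igtp, chr5:120907526-120907559 (minus) for Oas1a and chr5:120887614-120887645 (minus) for Oas1g. In Isg15 the run ends 56 bases before the start, and in Oas1a and Oas1g the last copy ends 4 and 2 bases before it. In Ifit1, Ifit3 and Rsad2 the motif reads in the reverse direction and ends 75, 112 and 110 bases before the start. Members that share the motif did not share a T-ALL ratio in bone marrow, which was 4.21 for Ifit3 and 1.36 (1.16 to 1.60) for Igtp.

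Interferon ligands were scarcely read, while the genes that carry their signal were abundant. Of 21 ligand genes listed, 17 had no line in any file and no ligand reached 10 CPM. Ifnb1, the beta interferon, had 2 reads in T-ALL and 0 in normal bone marrow, and 1 in T-ALL and 0 in normal spleen, where 0 allows up to 3 reads. Ifng, which T and NK cells make, had 17 and 27 reads in T-ALL and normal bone marrow and 22 and 23 reads in T-ALL and normal spleen. Of 11 genes of receptors and signal transduction, 1 was higher in T-ALL bone marrow, Ifngr2 at 2.24-fold (1.98 to 2.54). That count is near the 8.01% of all genes past the minimum. In spleen 4 of 10 were lower and 0 higher, against 11.0% and 10.3% of all genes. The lower ones were led by Ifngr1 at 2.75-fold (2.59 to 2.92), Jak2 at 2.61-fold (2.44 to 2.80) and Il10rb at 2.28-fold (2.07 to 2.50). Irf9, named after its values were seen as the partner of Stat2, was at 86.4 and 60.9 CPM in T-ALL and normal bone marrow and at 83.5 and 154 CPM in T-ALL and normal spleen.

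Sensors and factors that induce interferon had medians close to those of the members, 0.66 in bone marrow and -0.91 in spleen. Of all genes past the minimum, 8.01% were higher and 1.03% lower in T-ALL bone marrow. In T-ALL spleen 10.3% of all genes were higher and 11.0% lower. Of the sensors and factors, 6 of 17 were higher in T-ALL bone marrow and 0 lower. They were led by the RNA receptors Tlr8 at 7.79-fold and Tlr7 at 5.26-fold (4.52 to 6.16). Irf5, a factor that switches on inflammatory genes, was 4.88-fold higher (4.37 to 5.46). Tlr7 recognises single-stranded RNA in endosomes. In spleen 9 of 18 were lower and 0 higher, led by Tlr3, a receptor for double-stranded RNA, at 5.15-fold lower (3.91 to 6.88), and Irf5 and Tlr7, both 3.04-fold lower (2.83 to 3.28 and 2.79 to 3.31). Of the brakes and related genes, 1 of 14 was higher in bone marrow, Socs3 at 3.23-fold (2.79 to 3.76), and in spleen 2 of 15 were lower, Nlrx1 and the DNase Trex1, and 1 was higher, Rnaseh2b at 2.28-fold (1.89 to 2.75). Their medians, 0.04 and -0.10, lay near those of all genes, and their counts lay near the shares of all genes.

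Other interferon-stimulated genes outside the 38 gave counts like theirs. All gene lists here, like the members, were chosen with earlier results of these data known, so the likeness is no separate support. Of 41 past the minimum in bone marrow, 11 were higher and 0 lower in T-ALL, and the median log2 fold was 0.62, led by the DNA-binding Ifi204 at 7.88-fold (6.39 to 9.81), Ms4a4c at 4.69-fold (3.92 to 5.66) and Slfn1 at 4.20-fold (3.62 to 4.89). In spleen 17 of 44 were lower and 1 higher, with a median of -0.83, led by Ifi205 at 7.01-fold (4.51 to 11.4) and Ifitm6 at 4.95-fold (3.97 to 6.23), and the higher one was Lgals9, named after its values were seen. Genes typical of interferon gamma were higher in 5 of 15 in bone marrow, with the chemokine Cxcl9 at 5.35-fold (3.93 to 7.43). They were lower in 4 of 17 in spleen, led by Ciita, the master regulator of MHC class II, at 3.09-fold (2.91 to 3.29). Of all genes past the minimum, 8.01% were higher in T-ALL bone marrow and 11.0% lower in T-ALL spleen. Between the T-ALL organs, Ifitm6 was 23.2-fold lower (18.9 to 28.7) and Ifitm1 8.11-fold lower (6.26 to 10.7) in spleen, the same direction as Ifitm2 and Ifitm3.

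**Figure D4:**
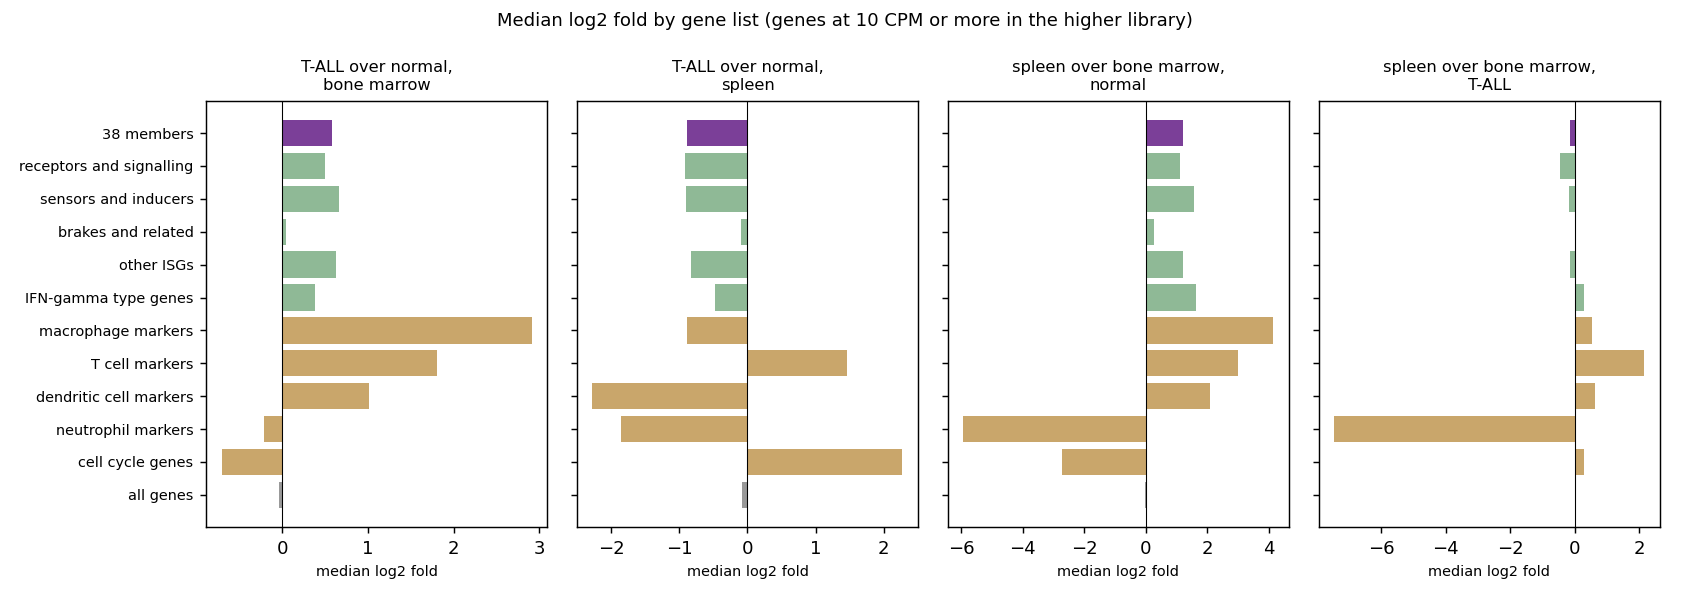
Median log2 fold of each gene list in the 4 comparisons, over genes that reach 10 CPM in either library, on log2(CPM + 1); each panel has its own axis. The members (purple, 0.58, -0.88, 1.22 and -0.15 from left to right) have the sign of most other interferon lists (green), unlike the IFN-gamma list between the T-ALL organs, and stand further from 0 than the brakes and related genes, while the macrophage markers (tan) differ more in bone marrow and between the normal organs by as much in spleen, and run the other way between the T-ALL organs (0.53).

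Markers of other cells ran beside the members in some comparisons and against them in others. In spleen, where 12 of 37 members were lower in T-ALL, 7 of 8 dendritic cell markers were lower (median log2 fold -2.28). They summed to 471 CPM in T-ALL and 1141 CPM in normal. All 6 neutrophil markers past the minimum were lower there too (median -1.86), as were 4 of 5 NK cell markers (median -1.34), 3 of 7 B cell markers (median -0.93), 3 of 7 monocyte markers, with 1 higher (median -0.94), and 3 of 6 plasmacytoid dendritic cell markers, with 1 higher. Of 12 T cell markers 9 were higher and 1 lower, and all 8 cell cycle genes were higher (median 2.28). In bone marrow, where 11 of 35 members were higher in T-ALL, all 11 T cell markers past the minimum were higher (median 1.81). There 7 of 8 monocyte markers were higher and all 6 neutrophil precursor markers were lower (median -1.92). Of 9 neutrophil markers 3 were higher and 0 lower (median -0.21), and of 5 erythroid markers 4 were higher (median 1.75). Of 4 dendritic cell markers 2 were higher, as were 1 of 6 B cell markers and 1 of 5 plasmacytoid dendritic cell markers. No cell cycle gene (median -0.71) or NK cell marker (median -0.44) was called in bone marrow. Plasmacytoid dendritic cell markers, Bst2 among them, summed to 278 and 233 CPM in T-ALL and normal bone marrow and to 277 and 397 CPM in T-ALL and normal spleen. The part of any of these cells in the members' levels was not tested.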

How the data were processed

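Each library has a deposited table with, per the file headers, counts of uniquely mapped reads, a listed length, the percent of that length covered and RPKM per gene. Per the labels' protocols, libraries followed standard Illumina steps; the sources used here do not give the aligner, counting rule or build. Deposited counts sum to the totals in the headers, and a gene without a line was set to 0. The authors' RPKM was recomputed from count and length to within 9.2e-06%. Coverage in percent is the authors' value.

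CPM was computed on TMM-scaled totals (edgeR 4.0.16 in R 4.3.3), with pandas 2.3.3 and scipy 1.17.1 for the rest, with 1 read worth 0.101 to 0.112 CPM. Groups come from sample titles, with 1 library each, so no model was fitted and no p-value given. The size rule was checked on simulated counts with counting error alone and large planted folds in genes with many reads. That check covers neither the spread between libraries nor members with few reads or near 2-fold. Intervals treat reads as independent; reads copied by PCR are not, so they cover counting error only. Strand is not stated, so overlapping genes are uncertain.

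Symbols matched all 38 members. Members and lists were chosen with earlier results of these data known. Every member could be named; of the other lists, the rule takes up to 3 per comparison, those that pass by the widest log2 fold, or the most abundant one where none passes. Promoter sequences and gene order are RefSeq's (GRCm38.p6), matched by Gene ID. Alternatives covered scaling, pseudocount, minimum level, unit, threshold, near-identical members and macrophage markers.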

Additional observations from a re-analysis of the deposited data

Results flagged for a closer look

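For 6 members the T-ALL difference ran in opposite directions in the 2 organs, higher in bone marrow and lower in spleen by the size rule in each. With 1 library per group the difference between organs was not tested. The gap between the bone marrow and spleen log2 folds was 3.84 for Ifit3, 3.58 for Mx1, 3.39 for Ifitm3, 3.15 for Samhd1, 2.86 for Oas2 and 2.78 for Oasl2. Of 9178 genes past the minimum in both organs, 289, or 3.15%, showed the same pair of calls.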

How the results depend on the processing

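The members' medians in all 4 comparisons depend on what the members are set against. The T-ALL spleen result moved too, from 12 lower members to 3. Relative to the median of 10 macrophage markers, 0 members were higher and 35 lower in T-ALL bone marrow (median log2 fold -2.63), 3 were lower in T-ALL spleen (-0.14), 0 were higher and 37 lower in normal spleen against normal bone marrow (-3.27), and the median between T-ALL organs was -0.78. Nearly all genes turn with that setting in bone marrow, where 9505 of 9716 came out lower, because the markers' own median log2 fold was 3.21. Between the normal organs 9862 of 10072 genes were lower by that setting. In T-ALL spleen 232 of 9774 genes were lower and 3272 higher. The median of all genes between the T-ALL organs was -0.62. By that setting the 11 members called in T-ALL bone marrow had log2 folds of -1.37 (Ifit3), -1.32 (Mx1), -2.18 (Oas2), -2.16 (Oas3), -1.94 (Oasl2), -1.66 (Zbp1), -1.52 (Rsad2), -1.54 (Samhd1), -1.87 (Ifitm3), -2.20 (Parp14) and -2.06 (Gbp2). The 24 called between the normal organs had -2.62 (Ifit1), -1.24 (Ifit3), -2.04 (Mx1), -2.05 (Mx2), -2.88 (Oas2), -3.48 (Oasl1), -3.27 (Ifih1), -3.36 (Ddx58), -3.01 (Dhx58), -2.47 (Zbp1), -2.91 (Rsad2), -2.37 (Samhd1), -2.47 (Isg15), -2.32 (Usp18), -3.09 (Parp9), -2.67 (Parp14), -2.94 (Gbp2), -3.42 (Gbp3), -2.96 (Igtp), -3.37 (Irgm1), -2.65 (Stat2), -3.44 (Ifi35), -2.88 (Xaf1) and -2.41 (Rtp4). With a minimum of 50 CPM, 7 members were higher in T-ALL bone marrow and 7 lower in T-ALL spleen, since fewer could be called. A 1.5-fold threshold gave 17 higher in T-ALL bone marrow, 27 lower in T-ALL spleen, 1 lower in normal spleen against bone marrow and 2 higher in T-ALL spleen against T-ALL bone marrow; a 4-fold one gave 0, 1 (Ifitm3), 8 higher between normal organs and 1 lower between T-ALL organs. Without 8 members that have close relatives, 5 were lower in T-ALL spleen against T-ALL bone marrow. Counts and medians of members under both other scalings, both other pseudocounts, the lower minimums and RPKM stayed within 1.5 times or within counting error. No paired analysis was possible because each group has 1 library. The depth of 1 library per group limits every value to these libraries.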
